A study of Homo sapiens with 12 samples.

Results

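The genes described here are a set of DNA replication and S phase genes, listed by name: the proteins that license and fire replication origins, the polymerases and their clamp, the enzymes that supply nucleotides, and a few G1/S regulators and chromatin factors. Ensembl identifiers of the count files were matched to current gene symbols, which gave 49 of the 50 listed genes among 57773 identifiers. UHRF1 had no matching identifier and has no value here. All 49 passed the filter on low counts, which left 22984 genes, and the lowest count of a member in any library was 105. The list was drawn up with earlier results of these data known.

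DNA replication is prepared in G1, when the origin recognition complex, CDC6 and CDT1 load the MCM helicase onto origins, which licenses them. At the start of S phase MCM10, CDC45 and the GINS proteins turn the loaded helicase into an active one, and polymerases then copy the DNA with the help of the sliding clamp PCNA, its loader RFC and the single-strand binding protein RPA. Many of these genes are targets of E2F transcription factors, of which E2F1 is a member here, and their mRNAs rise at the G1/S border in dividing cells. HuR, encoded by ELAVL1, is an RNA-binding protein known to prefer stretches rich in U or in A and U, often in 3′ untranslated regions (3′ UTRs), and to stabilise many mRNAs it binds. SUMOylation couples SUMO, a small protein related to ubiquitin, to lysine side chains.

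The RNA came from HuH-7, an established human hepatoma line. There were 4 groups of 3 libraries each. Mutant RIP and mutant input came from cells that stably express V5-tagged HuR K120/182R, the SUMOylation mutant, in which arginines replace a pair of lysines. WT RIP and WT input came from cells that stably overexpress V5-tagged wild-type (WT) HuR. RIP is RNA immunoprecipitation with the V5 tag, and input is total RNA of the same kind of cells. The labels give no time or dose. The column headings of the count files carry the name of a solvent, DMSO, in every group, which the labels do not describe. The labels do not say whether a line is 1 clone, what drives the tagged gene or whether the cells keep their own HuR, and no mock precipitate or untagged line is used here. A level above input was thus not compared with RNA that sticks to the beads. A RIP library started with 16 to 77 ng of RNA and an input library with 250 ng, so the amount of RNA and the precipitation cannot be told apart. The labels do not say that replicates are separate cultures, and the spread behind each p-value is that between libraries, which can be technical.

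Total counts per library ran from 31774994 to 73149117. All 10 hepatoma markers checked, such as ALB and AFP, were present in each group, and their summed level was 9020 to 10200 CPM (counts relative to the scaled size of the library) in mutant input and 11500 to 13500 CPM in WT input. Of 9 markers of blood, endothelial, stromal and muscle cells 8 had an identifier, and they summed to 5.39 to 5.82 CPM in mutant input and 3.93 to 4.59 CPM in WT input, with 3 of the 8 at 0 in every mutant input library and 1 in every WT input library. ELAVL1, whose counts hold both the tagged and the cells' own gene, stood at 48.3 ± 4.18 CPM in mutant input and 58.2 ± 5.32 CPM in WT input (SD, n = 3 each). This log2 difference of −0.27 ± 0.12 (SE) did not pass the test (adjusted p = 0.14). Every adjusted p given here, unless another tool is named, is from the quasi-likelihood fit of edgeR, adjusted by Benjamini and Hochberg's method over all genes tested. The counts neither separate the tagged forms nor check them.

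The promoters of the members were read first, because E2F factors are known to drive many of these genes. RefSeq promoters (build GRCh38.p14), 250 bases before to 50 after the start, were at hand for 43 of the 50 listed genes. An E2F octamer was searched as any of 4 forms, TTTCCCGC, TTTGGCGC, TTTCGCGC and TTTGCCGC, on both strands. It was found in 21 of the 43 (48.8%), against 5.18% of 11117 promoters of coding genes tested and 3.33% of all 27305. The promoters below belong to 3 members that were lower in mutant input and to CDT1, the member that was higher, and octamers are in capitals. That of MCM6, a helicase subunit, lies at chr2:135876394-135876693 on the minus strand and holds 4 octamers, in 2 places where a match on each strand shares 4 bases with the other. That of PCNA is at chr20:5126573-5126872 (minus), that of the mismatch repair gene MSH6 at chr2:47782895-47783194 (plus) and that of CDT1 at chr16:88803539-88803838 (plus), with 1 octamer each.
MCM6: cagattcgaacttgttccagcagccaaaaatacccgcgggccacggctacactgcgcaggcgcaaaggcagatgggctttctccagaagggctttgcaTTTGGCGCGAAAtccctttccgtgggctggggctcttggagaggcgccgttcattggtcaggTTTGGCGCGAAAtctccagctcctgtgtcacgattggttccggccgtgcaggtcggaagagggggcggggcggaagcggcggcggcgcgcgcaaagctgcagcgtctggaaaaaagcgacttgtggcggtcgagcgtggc
PCNA: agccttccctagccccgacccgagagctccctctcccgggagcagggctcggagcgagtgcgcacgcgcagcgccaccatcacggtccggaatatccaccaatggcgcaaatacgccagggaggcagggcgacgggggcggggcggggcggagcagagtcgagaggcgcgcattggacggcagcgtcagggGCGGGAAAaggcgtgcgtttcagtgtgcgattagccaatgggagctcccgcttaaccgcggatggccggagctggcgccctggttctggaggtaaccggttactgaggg
MSH6: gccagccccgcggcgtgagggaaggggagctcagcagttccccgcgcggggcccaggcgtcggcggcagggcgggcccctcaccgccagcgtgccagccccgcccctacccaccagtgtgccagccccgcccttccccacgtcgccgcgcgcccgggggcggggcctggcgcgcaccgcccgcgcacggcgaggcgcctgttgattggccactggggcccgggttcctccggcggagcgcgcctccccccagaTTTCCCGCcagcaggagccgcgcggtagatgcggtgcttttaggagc
CDT1: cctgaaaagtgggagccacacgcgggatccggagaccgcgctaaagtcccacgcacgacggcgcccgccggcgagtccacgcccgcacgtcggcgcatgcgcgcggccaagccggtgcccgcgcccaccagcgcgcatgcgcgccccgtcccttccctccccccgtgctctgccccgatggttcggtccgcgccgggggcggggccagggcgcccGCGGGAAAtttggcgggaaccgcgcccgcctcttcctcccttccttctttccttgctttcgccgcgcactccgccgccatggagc
Counted in bases from the annotated start, the matches begin at −152, −148, −90 and −86 in MCM6, at −59 in PCNA, at −35 in CDT1 and at 4 in MSH6. A match is a description of letters and not a measured binding site.

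Levels of the members spanned a wide range. Per kilobase of summed exon length, PCNA was the highest in WT input at 107 CPM per kb (range 94.8 to 115.0 over the 3 libraries), followed by the flap endonuclease FEN1 at 36.1, the thymidylate synthase TYMS at 33.1 and the helicase subunit MCM7 at 30.7. LIG1, the ligase of Okazaki fragments, was the lowest at 0.795, and the ratio of the highest to the lowest was 135. Of the 48 neighbouring pairs in this order, 10 had WT input libraries that did not overlap, so much of the order lies within the spread. The summed level of all 49 members was 1350 to 1430 CPM in mutant input and 1670 to 1750 CPM in WT input. In the precipitates it was 1430 to 1480 CPM in mutant RIP and 1470 to 1550 CPM in WT RIP.

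A limit applies to 11 members whose exons share 10% or more of their bases with another annotated gene: TYMS (47.9%), CCNE2 (37.1%), PRIM2 (29.8%), MSH6 (24.2%), MCM2 (23.6%), GINS4 (23.4%), POLA2 (21.3%), PRIM1 (19.1%), DUT (14.5%), GINS3 (10.9%) and RFC5 (10.7%). The strand setting of the counting is not given in the sources used here, so their values are uncertain. PRIM2 also shares exon bases with a pseudogene copy.

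The first comparison set the inputs of the lines side by side, to ask whether replication genes stood at different levels in cells with the mutant and with WT HuR. More members were lower in mutant input than higher: 16 of 49 fell and 1 rose at an adjusted p under 0.05, against 10% lower and 7.47% higher of all 22984 genes tested. Of coding genes 14.2% were lower and 8.91% higher. The median log2 fold change of the members was −0.30, beside 0.00 for all genes and −0.03 for coding genes. Below 0 lay 43 of 49 members (87.8%), against 49.6% of all genes and 53.4% of coding genes. All 3 mutant input libraries lay below all 3 WT input libraries in 29 of 49 members, where 18.1% of all genes did so. They lay above them in 2 members and in 3584 of all 22984 genes. The genes that fell were CCNE2, RRM2, MCM6, PCNA, MSH6, GINS4, MCM4, CDC45, CHAF1B, HAT1, RFC3, GINS3, RRM1, RPA1, RFC2 and SLBP, by 1.02 to 0.37 on the log2 scale. In bulk RNA, fewer cells in S phase and less of these RNAs per cell cannot be told apart.

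**Figure D1:**
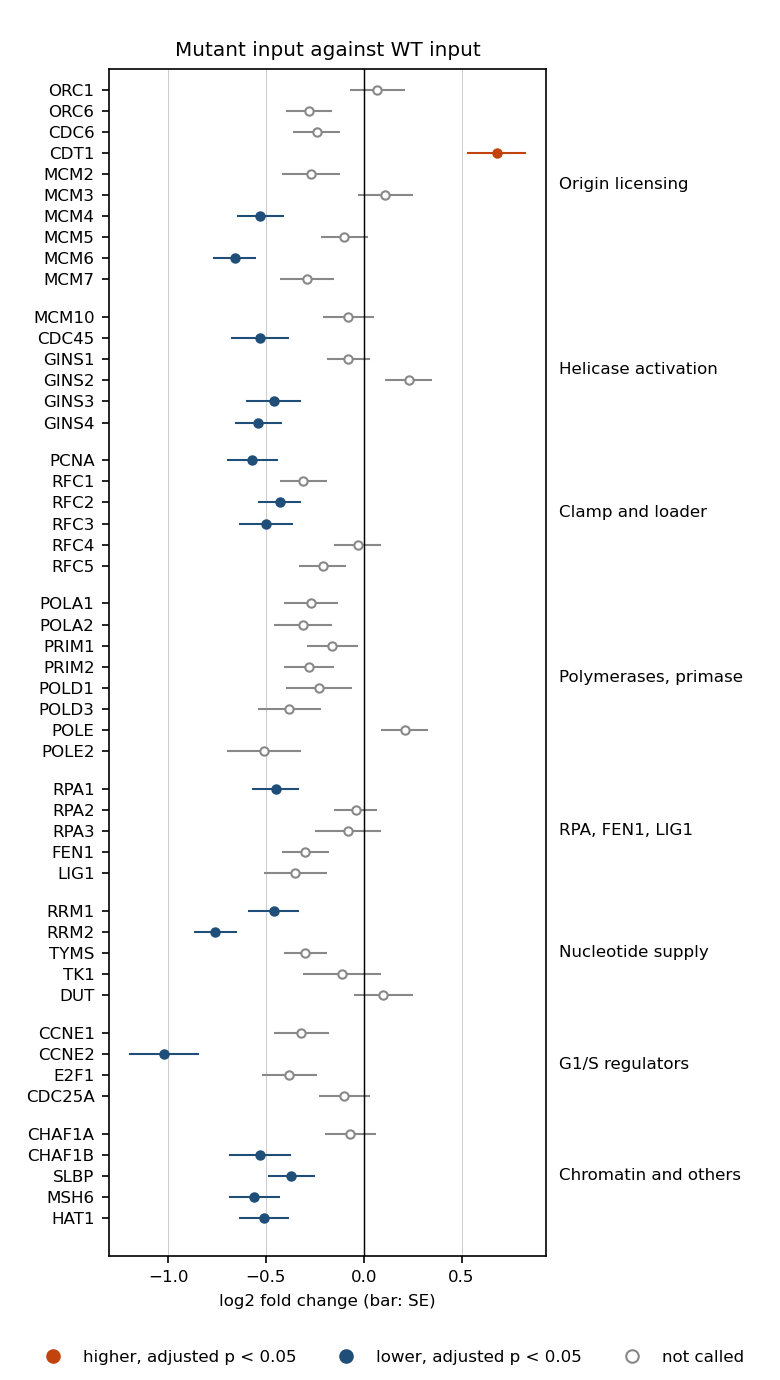
Log2 fold change of each of the 49 members, mutant input against WT input (x axis), with its SE as a bar, grouped by role (y axis). Filled points passed an adjusted p of 0.05: 16 lie left of 0 and 1, CDT1, lies right of it.

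Among the licensing genes, 2 of 10 fell and 1 rose. CDT1, the loading factor that is limiting for licensing and is kept low in S phase by degradation of the protein (chromosome 16, 88870197 to 88875666, plus strand, hg19), had 47.3, 36.8 and 36.2 CPM in the 3 mutant input libraries, against 21.8, 25.9 and 27.4 CPM in the 3 WT input libraries. Every mutant library lay above every WT library, with 1 mutant library higher than the other 2. The log2 fold change was 0.68 ± 0.15 (adjusted p = 0.00263). With scaling by total library size it was 0.26 and was not called.

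MCM6 (chromosome 2, 136597196 to 136634013, minus strand) had 39.4, 44.7 and 40.7 CPM in mutant input, against 67.2, 60.6 and 69.2 CPM in WT input. The groups did not overlap, and the fold change was −0.66 ± 0.11 (adjusted p = 0.00025). MCM4 fell by 0.53. The other 4 subunits of the same ring did not pass the test: MCM2 stood at −0.27, MCM3 at 0.11, MCM5 at −0.10 and MCM7 at −0.29. Differences between subunits were not tested, and MCM2 and MCM7 were called lower too with the GC trend removed. MCM2 had 39.4, 34.7 and 30.7 CPM in mutant input and 42.5, 38.2 and 45.9 CPM in WT input, with overlapping libraries (adjusted p = 0.207). CDC6, the loading ATPase, had 19.1, 23.1 and 20.2 CPM in mutant input and 25.6, 24.8 and 23.2 CPM in WT input. Its mutant libraries were all just below the WT ones, and the change of −0.24 ± 0.12 did not pass (adjusted p = 0.178). ORC1 and ORC6, subunits of the origin recognition complex, stood at 0.07 and −0.28 and did not pass either.

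Of the 6 helicase activation genes 3 fell: CDC45 (−0.53 ± 0.15), GINS3 (−0.46 ± 0.14) and GINS4 (−0.54 ± 0.12). GINS1 (−0.08), GINS2 (0.23) and MCM10 (−0.08) did not pass. Of the 4 subunits of the GINS complex 2 were thus called lower and 2 were not called, and differences between them were not tested. The call of GINS3 was lost in 6 fits that each left out an input library, and without a filter on low counts. Both GINS3 and GINS4 are uncertain by their exon overlap.

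Of the clamp and its loader, 3 of 6 fell. PCNA (chromosome 20, 5095599 to 5107272, minus strand) had 96.6, 105 and 101 CPM in mutant input, against 161, 157 and 133 CPM in WT input. The mutant libraries lay close together and all below the WT ones, and the fold change was −0.57 ± 0.13 (adjusted p = 0.00237). The loader subunits RFC2 (−0.43 ± 0.11) and RFC3 (−0.50 ± 0.14) fell as well, and RFC1 (−0.31), RFC4 (−0.03) and RFC5 (−0.21) did not pass.

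In the main fit the polymerase and primase subunits were the role with no call. By edgeR 0 of 8 were called higher and 0 lower, where 10% of all genes were lower. Before adjustment 0 were higher and 4 lower with p under 0.05, and DESeq2 also called 0 in each direction. Of the 8, 1 was called lower with the GC trend removed, 1 with the replicate block and 7 with scaling by total library size. Their fold changes ran from −0.51 for POLE2 to 0.21 for POLE, both subunits of the leading-strand polymerase epsilon. The median was −0.28, beside −0.30 for all 49 members. Of RPA and the Okazaki fragment enzymes, RPA1 fell (−0.45 ± 0.12), and RPA2 (−0.04), RPA3 (−0.08), FEN1 (−0.30) and LIG1 (−0.35) did not pass.

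Nucleotide supply held one of the largest falls. RRM2, the small and cell-cycle-regulated subunit of ribonucleotide reductase (chromosome 2, 10260825 to 10351851, plus strand), had 45.4, 49.4 and 47.3 CPM in mutant input, against 80.3, 78.7 and 81.3 CPM in WT input. The spread within each group was small beside the gap between them, and the fold change was −0.76 ± 0.11 (adjusted p = 3.12e-05). RRM1, the large subunit, fell by 0.46 ± 0.13. TYMS had 72.8, 59.3 and 63.2 CPM in mutant input and 81.8, 79.2 and 79.7 CPM in WT input, without overlap, and its change of −0.30 ± 0.11 did not pass (adjusted p = 0.0714). The thymidine kinase TK1 (−0.11) and the dUTPase DUT (0.10) did not pass.

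Of the 4 G1/S regulators 1 fell, CCNE2 (cyclin E2). It had 3.13, 3.28 and 4.81 CPM in mutant input, against 7.59, 8.88 and 6.43 CPM in WT input. The groups did not overlap, and the fold change of −1.02 ± 0.18 (adjusted p = 0.000273) was the largest among members, for a gene whose exons overlap INTS8 on the opposite strand. CCNE1, cyclin E1, had 17.0, 17.5 and 17.2 CPM in mutant input and 21.9, 21.3 and 21.4 CPM in WT input. Its libraries were also apart, and −0.32 ± 0.14 did not pass (adjusted p = 0.12), although it was called lower with the GC trend removed. E2F1 itself had 36.7, 32.1 and 34.9 CPM in mutant input and 43.1, 43.7 and 47.7 CPM in WT input. These did not overlap either, and −0.38 ± 0.14 did not pass (adjusted p = 0.065). The phosphatase CDC25A stood at −0.10.

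Of the chromatin and other genes 4 of 5 fell. They were the acetyltransferase HAT1, which acts on newly made histone H4 (−0.51 ± 0.13), the chromatin assembly subunit CHAF1B (−0.53 ± 0.16), the histone mRNA binding protein SLBP (−0.37 ± 0.12) and MSH6 (−0.56 ± 0.13). CHAF1A, the partner of CHAF1B, stood at −0.07 and did not pass.

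The median input change was −0.30 over 20 tested members with an E2F octamer in the promoter and −0.29 over 22 without. Of these, 5 and 8 were lower. Exact matches in a short window do not sort E2F targets from other genes, and E2F binding was not tested. Scaling by total library size moved the median of all genes to −0.43 and that of the members to −0.74, with 40 members lower and 0 higher by edgeR, where 29.7% of all genes were lower. The 16 lower members remained called with that scaling, with factors from coding genes and with the trend of GC content removed. The count of lower members was 8 without WT input 1 and 10 without mutant input 3. Leaving out each library in turn, CCNE2, GINS4, MCM4, MCM6, MSH6, PCNA, RPA1 and RRM2 stayed lower and CDT1 stayed higher every time. Normalization factors and the hepatoma marker sums also differed between the inputs (0.526 to 0.600 for mutant and 0.626 to 0.909 for WT), and their part in the result was not tested.

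**Figure D2:**
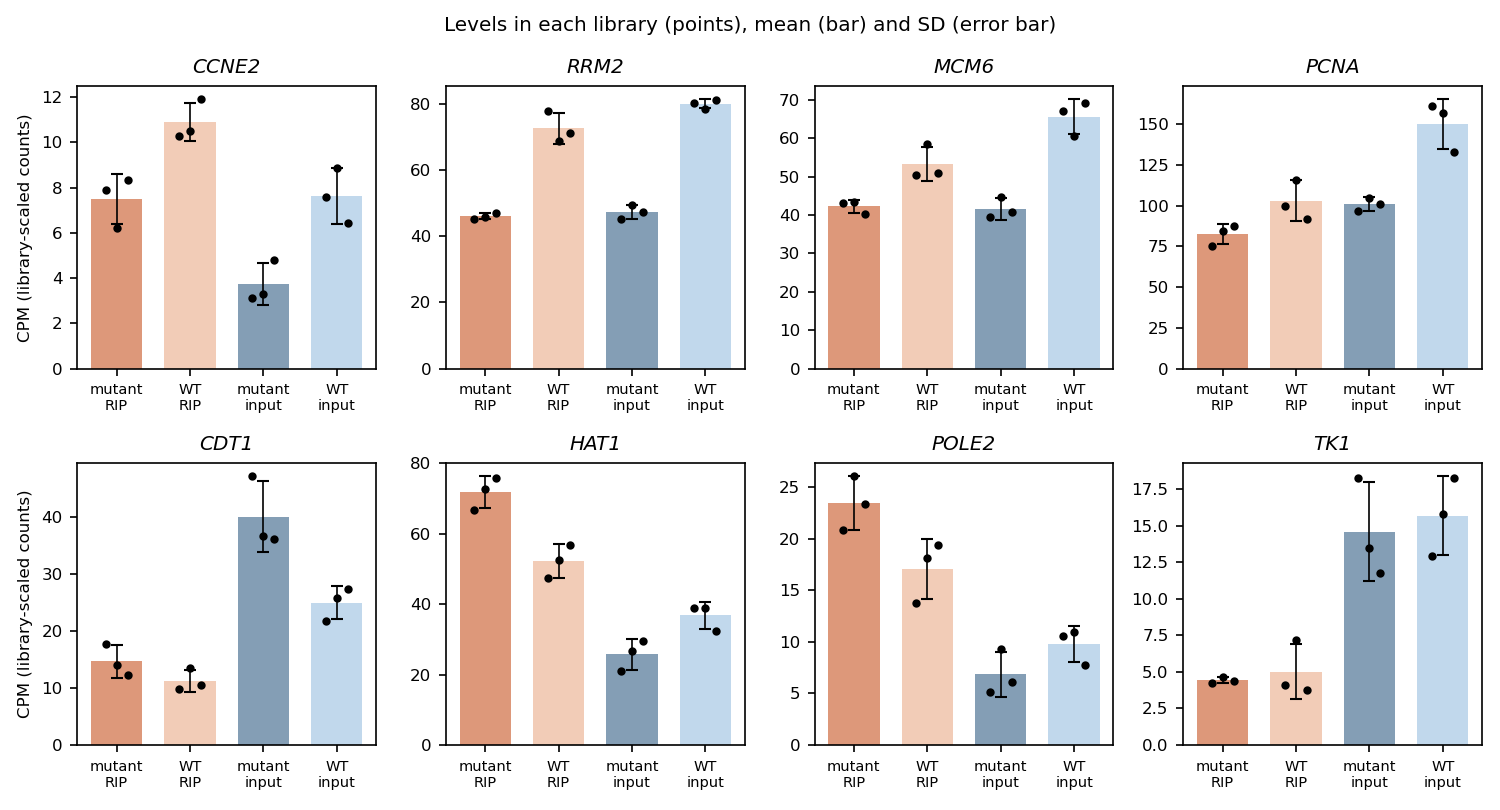
Level of 8 members in CPM (y axis) in mutant RIP, WT RIP, mutant input and WT input, with the 3 libraries as points, the mean as a bar and the SD as an error bar. In input CCNE2, RRM2, MCM6 and PCNA are lower in mutant than in WT libraries and CDT1 is higher, and POLE2 and TK1 differ between RIP and input in both lines.

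The second question was how far each of these mRNAs was recovered with HuR. Enrichment is the log2 fold change of a precipitate against its own input, relative to the typical gene of the library. With mutant HuR, 17 of 49 members were higher in the precipitate than in input and 12 lower, against 29.0% higher and 28.0% lower of all genes tested. With WT HuR, 11 were higher and 18 lower, against 25.6% and 25.4% of all genes. The members' median enrichment was 0.01 in the mutant line and −0.14 in the WT line, beside 0.07 and 0.06 for all genes and −0.11 and −0.13 for coding genes. Of coding genes, 26.6% were higher and 36.1% lower in the mutant line, and 22.0% higher and 34.0% lower in the WT line, beside 34.7% and 24.5% of members in the mutant line and 22.4% and 36.7% in the WT line. The members' shares in the WT line thus lie near those of coding genes. Single members ran from −1.75 to 1.77 in the mutant line and from −2.15 to 1.04 in the WT line. With factors from coding genes the split was 20 higher and 11 lower in the mutant line and 14 higher and 12 lower in the WT line. Of all 22984 genes, 7642 were then higher and 5560 lower in the mutant line, and 7045 and 4773 in the WT line.

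Scaling by total library size, in place of factors set by the typical gene, moved the median of all genes to 1.38 in the mutant line and 1.12 in the WT line. The members then split into 45 higher and 0 lower by edgeR in the mutant line and 38 higher and 2 lower in the WT line, where 73.1% of all genes were higher in the mutant line and 68.6% in the WT line. A member called lower here is thus lower relative to the typical gene, and most such calls turn positive against the whole library, as listed with the processing. Of the lower calls POLD1 and TK1 stayed lower in the WT line with that scaling, and in the mutant line they stood at −0.45 and −0.41 without passing the test.

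**Figure D3:**
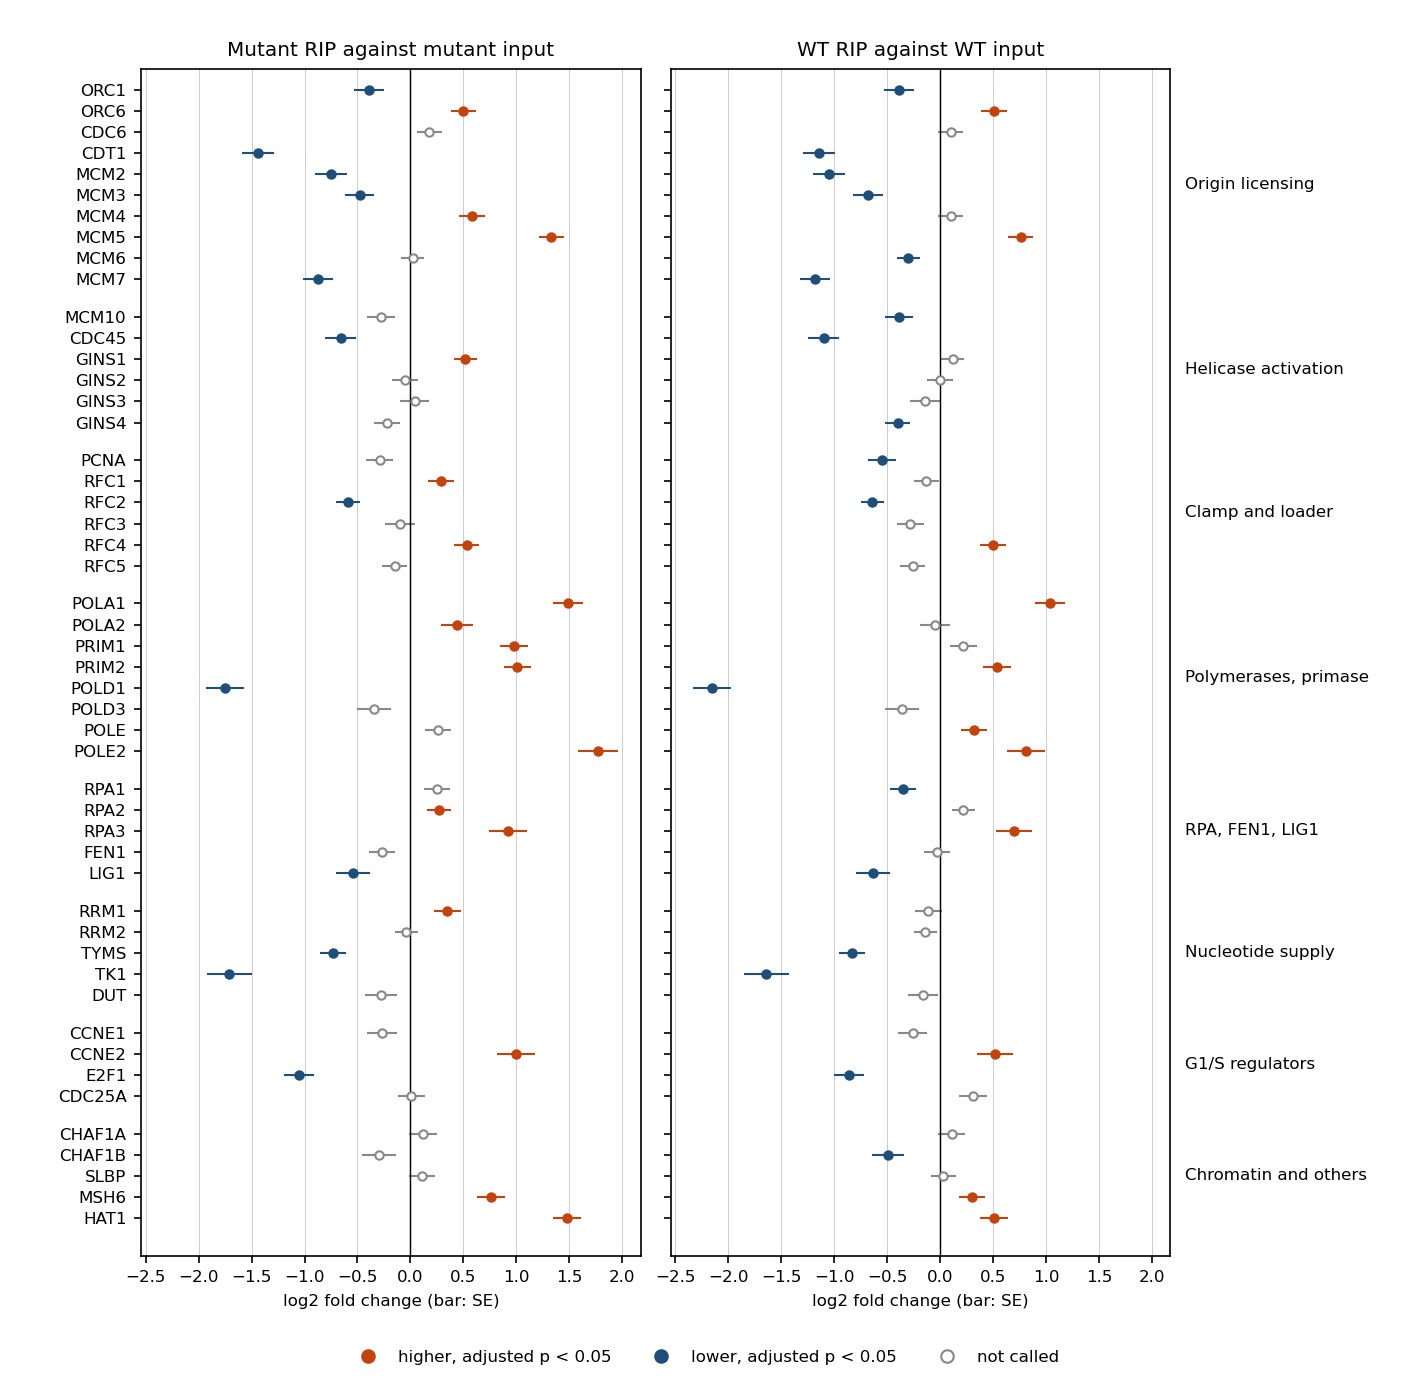
Log2 fold change of each of the 49 members in mutant RIP against mutant input (left) and WT RIP against WT input (right), with its SE as a bar, grouped by role. In both lines POLE2, POLA1 and MCM5 lie right of 0 and POLD1, TK1 and CDT1 lie left of it, relative to the typical gene.

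The enrichments of the lines share no library. Called higher in each line were 10 members, CCNE2, HAT1, MCM5, MSH6, ORC6, POLA1, POLE2, PRIM2, RFC4 and RPA3, and called lower in each were 12, CDC45, CDT1, E2F1, LIG1, MCM2, MCM3, MCM7, ORC1, POLD1, RFC2, TK1 and TYMS. These are 20.4% and 24.5% of members, against 21.2% and 22.3% of all genes and 19.3% and 30% of coding genes. By edgeR 0 members were called in opposite directions, as were 4 of all 22984 genes. A further 7 were called higher in the mutant line alone (GINS1, MCM4, POLA2, PRIM1, RFC1, RPA2 and RRM1), POLE was called higher in the WT line alone, and 6 were called lower in the WT line alone (CHAF1B, GINS4, MCM10, MCM6, PCNA and RPA1). A call in 1 line alone is not a difference between lines, which is tested below. Leaving out 1 library at a time ended, in at least 1 fit, the mutant calls of RFC1, RPA2, RRM1 and ORC1 and the WT calls of CCNE2, MSH6, POLE, GINS4, MCM10, MCM6, ORC1 and RPA1. The WT calls of MSH6, ORC1 and POLE were lost in 7, 5 and 4 of the 12 fits. The remaining 13 were called in neither, among them CDC6, CCNE1, RRM2, FEN1 and SLBP.

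The polymerase and primase genes held the widest spread of enrichments. POLE2 (chromosome 14, 50110273 to 50155140, minus strand) had 20.9, 26.1 and 23.4 CPM in mutant RIP, against 5.19, 9.31 and 6.08 CPM in mutant input. It had 13.8, 18.1 and 19.4 CPM in WT RIP, against 10.6, 11 and 7.80 CPM in WT input. In each line every precipitate lay above every input, by 1.77 ± 0.19 in the mutant line (adjusted p = 4.75e-08) and 0.81 ± 0.18 in the WT line (adjusted p = 0.000835).

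POLA1, the catalytic subunit of polymerase alpha, which starts each strand together with primase (X chromosome, 24711990 to 25015103, plus strand), had 32.3, 27.4 and 27.3 CPM in mutant RIP, against 8.91, 10.7 and 11.3 CPM in mutant input. It had 23.1, 22.9 and 30.8 CPM in WT RIP, against 12.3, 11.8 and 13.3 CPM in WT input. The precipitates were above the inputs throughout, by 1.49 ± 0.14 in the mutant line (adjusted p = 1.37e-09) and 1.04 ± 0.14 in the WT line (adjusted p = 6.01e-07). The primase subunit PRIM2, an uncertain gene, was at 1.01 and 0.54 in these lines and was called in both, and the small primase subunit PRIM1, also uncertain, was at 0.98 in the mutant line and at 0.22, not called, in the WT line.

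POLD1, the catalytic subunit of the lagging-strand polymerase delta (chromosome 19, 50887461 to 50921275, plus strand), went the other way. It had 3.74, 3.82 and 4.47 CPM in mutant RIP, against 17.0, 11.6 and 11.9 CPM in mutant input, and 2.68, 4.12 and 3.87 CPM in WT RIP, against 15.5, 13.9 and 18.1 CPM in WT input. All precipitates lay far below all inputs, at a log2 fold change of −1.75 ± 0.18 in the mutant line (adjusted p = 5.69e-09) and −2.15 ± 0.18 in the WT line (adjusted p = 3.43e-10), the lowest of all members in each. Its accessory subunit POLD3 stood at −0.34 and −0.36 and was not called.

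Among the helicase subunits MCM5 was called higher in both lines, MCM4 was called higher in the mutant line (0.58, and 0.10 in the WT line), MCM6 stood at 0.02 and −0.30, and MCM2, MCM3 and MCM7 were called lower in both. Differences between subunits were not tested. MCM5 (chromosome 22, 35796127 to 35821424, plus strand) had 60.6, 53.3 and 47.1 CPM in mutant RIP, against 21.5, 22.4 and 20.0 CPM in mutant input. In the WT line it had 34.8, 39.3 and 41.6 CPM in RIP, against 22.6, 22.5 and 23.3 CPM in input. It was higher in every precipitate, by 1.33 ± 0.12 in the mutant line (adjusted p = 8.57e-10) and 0.76 ± 0.12 in the WT line (adjusted p = 8.07e-06).

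MCM7 (chromosome 7, 99689856 to 99699563, minus strand) was lower in every precipitate, with 66.2, 77.4 and 60.1 CPM in mutant RIP, against 127, 132 and 115 CPM in mutant input. It had 56.5, 80.0 and 64.9 CPM in WT RIP, against 153, 142 and 162 CPM in WT input. Its fold changes were −0.87 ± 0.14 in the mutant line (adjusted p = 5.1e-06) and −1.18 ± 0.14 in the WT line (adjusted p = 8.46e-08). MCM2, uncertain by its overlap, had 23.1, 22.4 and 16.5 CPM in mutant RIP, against 39.4, 34.7 and 30.7 CPM in mutant input, and 16.4, 23.6 and 21.3 CPM in WT RIP, against 42.5, 38.2 and 45.9 CPM in WT input, which did not overlap in either line (−0.75 and −1.05). MCM3 was called lower in both lines as well (−0.48 and −0.68).

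CDT1 had 17.8, 14 and 12.3 CPM in mutant RIP, against 47.3, 36.8 and 36.2 CPM in mutant input. It had 9.84, 13.6 and 10.6 CPM in WT RIP, against 21.8, 25.9 and 27.4 CPM in WT input. Its precipitates were all below its inputs, at a log2 fold change of −1.44 ± 0.15 in the mutant line (adjusted p = 1.42e-08) and −1.14 ± 0.15 in the WT line (adjusted p = 9.06e-07). CDC6 had 24.0, 24.4 and 22.4 CPM in mutant RIP and 29.0, 25.2 and 24.9 CPM in WT RIP, which overlapped with its inputs in each line.

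TK1 (chromosome 17, 76170172 to 76183314, minus strand) was the lowest of the nucleotide supply genes. It had 4.26, 4.68 and 4.38 CPM in mutant RIP, against 18.3, 13.5 and 11.8 CPM in mutant input, and 4.12, 7.16 and 3.75 CPM in WT RIP, against 12.9, 15.8 and 18.3 CPM in WT input. No precipitate reached an input, and the fold changes were −1.71 ± 0.21 in the mutant line (adjusted p = 8.84e-07) and −1.64 ± 0.21 in the WT line (adjusted p = 1.74e-06). TYMS had 40.5, 37.2 and 40.3 CPM in mutant RIP and 48.9, 44.7 and 41.9 CPM in WT RIP, all below its inputs (−0.73 and −0.83), with the limit of its overlap with ENOSF1. RRM2, which differed between inputs, was recovered close to its input level: it had 45.4, 45.8 and 47.1 CPM in mutant RIP and 77.9, 69 and 71.2 CPM in WT RIP, which gives −0.04 and −0.14, neither called.

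PCNA had 75.5, 84.6 and 87.7 CPM in mutant RIP and 99.6, 116 and 91.8 CPM in WT RIP. All precipitates lay below the inputs of the same line, at a log2 fold change of −0.29 ± 0.13 in the mutant line, which just missed the threshold, and −0.55 ± 0.13 in the WT line (adjusted p = 0.000672). E2F1 (chromosome 20, 32263283 to 32274191, minus strand) had 21.5, 14.3 and 14.2 CPM in mutant RIP and 23.3, 22.9 and 27.9 CPM in WT RIP. These were below all inputs, at a log2 fold change of −1.05 ± 0.14 in the mutant line (adjusted p = 6.57e-07) and −0.86 ± 0.14 in the WT line (adjusted p = 1.34e-05). CCNE1 had 17.8, 12.6 and 12.4 CPM in mutant RIP and 17.2, 15.7 and 21.0 CPM in WT RIP and was called in neither line (−0.27 and −0.26), and CCNE2 was higher in both (1.0 and 0.52). The WT value of CCNE2 did not pass without WT RIP 3 or WT input 3 (highest adjusted p = 0.079), nor with the GC trend removed (highest adjusted p = 0.0883, with the replicate block added).

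RPA3, the smallest subunit of RPA (chromosome 7, 7676149 to 7758238, minus strand), had 49.7, 76.7 and 83.9 CPM in mutant RIP, against 28.8, 40.4 and 41.9 CPM in mutant input. It had 56.0, 68.6 and 66.2 CPM in WT RIP, against 41.1, 43.7 and 32.9 CPM in WT input. The precipitates did not overlap with the inputs in either line (0.92 ± 0.18 and 0.70 ± 0.17). RPA1 stood at 0.25 in the mutant line, not called, and at −0.35 in the WT line.

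The third comparison took the difference of the enrichments, mutant minus WT, which asks whether recovery relative to input differed between the lines. The mutation and other differences between the lines cannot be told apart here. HAT1 alone of the members was called, at 0.97 ± 0.18 (95% interval 0.59 to 1.35, adjusted p = 0.0369), with 0.0653% of all genes called higher. HAT1 (chromosome 2, 172778958 to 172848600, plus strand) had 66.8, 72.6 and 75.8 CPM in mutant RIP, against 20.9, 26.8 and 29.5 CPM in mutant input, and 47.3, 52.6 and 56.8 CPM in WT RIP, against 39.0, 38.9 and 32.5 CPM in WT input. It was thus both higher in mutant RIP than in WT RIP and lower in mutant input than in WT input, in every library, and its enrichment was 1.48 ± 0.13 in the mutant line and 0.51 ± 0.13 in the WT line. The call was lost in 8 of the 12 fits that left out 1 library, those without WT RIP 1 or 2, mutant RIP 2 or 3, WT input 1 or 2, or mutant input 1 or 2, with an adjusted p of 0.0242 to 0.209 and a difference of 0.81 to 1.06 over the 12.

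By edgeR 0 members were called lower, as were 0 of all 22984 genes. Before adjustment (p under 0.05) 0 members were lower, beside 1258 of all genes. DESeq2 called 0 members lower and 55 of all genes. At an unadjusted p under 0.05, 13 members were higher, against 7.6% of all genes, and 38 of the 49 differences (77.6%) lay above 0, against 50.4% of all genes, with a median of 0.18 beside 0.00 for all genes. These differences contain the inputs, so a lower mutant input enters both this comparison and the first one. POLE2 (0.97 ± 0.26, interval 0.43 to 1.51), PRIM1 (0.76 ± 0.18), RPA1 (0.60 ± 0.17) and MCM5 (0.57 ± 0.17) followed HAT1 without passing, at an adjusted p of 0.125, 0.0837, 0.135 and 0.143. DESeq2 called these 4 together with HAT1, in a test that called 1.65% of all genes higher. At the other end CDC25A (−0.30, interval −0.69 to 0.09), CDT1 (−0.30, interval −0.74 to 0.14) and FEN1 (−0.24, interval −0.60 to 0.12) were lowest.

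**Figure D4:**
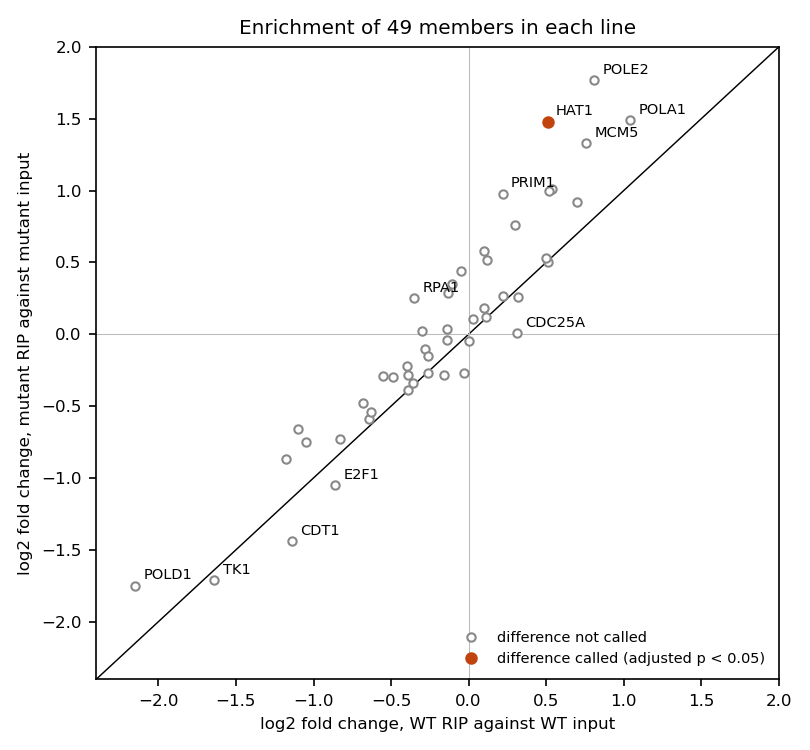
Enrichment of each of the 49 members in the mutant line (y axis, log2) against that in the WT line (x axis, log2), with the line of equal values. HAT1, filled, is the member whose difference of 0.97 passed the test, and 38 of 49 points lie above the line.

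Enrichment went with base composition. The members' transcripts ran from 35.2% to 64.3% GC, with a median of 47.1%. Across the 49 members, which share libraries and are not independent, Spearman's rho of enrichment with GC was −0.62 in the mutant line and −0.51 in the WT line, beside −0.54 and −0.45 over 14017 coding genes. For the difference of enrichments it was −0.46 over the members and −0.42 over coding genes, and for the input difference 0.33 and 0.30. Of the 16 members of highest GC content (51.6% to 64.3%) 10 were lower in each line, and of the 17 of lowest GC content (35.2% to 44.5%) 10 were higher in the mutant line and 6 in the WT line. Of coding genes in the first range 59.1% were lower in the mutant line and 53.2% in the WT line, and of those in the second 45.8% and 34.4% were higher. MCM5 was the exception among the leading members, at 57.0% GC and enriched in both lines. With the GC trend of each library removed, 13 of the 17 higher calls and 3 of the 12 lower calls (POLD1, TK1 and TYMS) remained in the mutant line, and 8 of 11 and 14 of 18 remained in the WT line. MCM2, LIG1 and E2F1 then stood at 0.02, 0.17 and 0.04 in the mutant line, none of them called, and E2F1 at 0.02 in the WT line. CDT1 was no longer called in either line. The part of GC content in library making and in HuR binding was not tested.

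**Figure D5:**
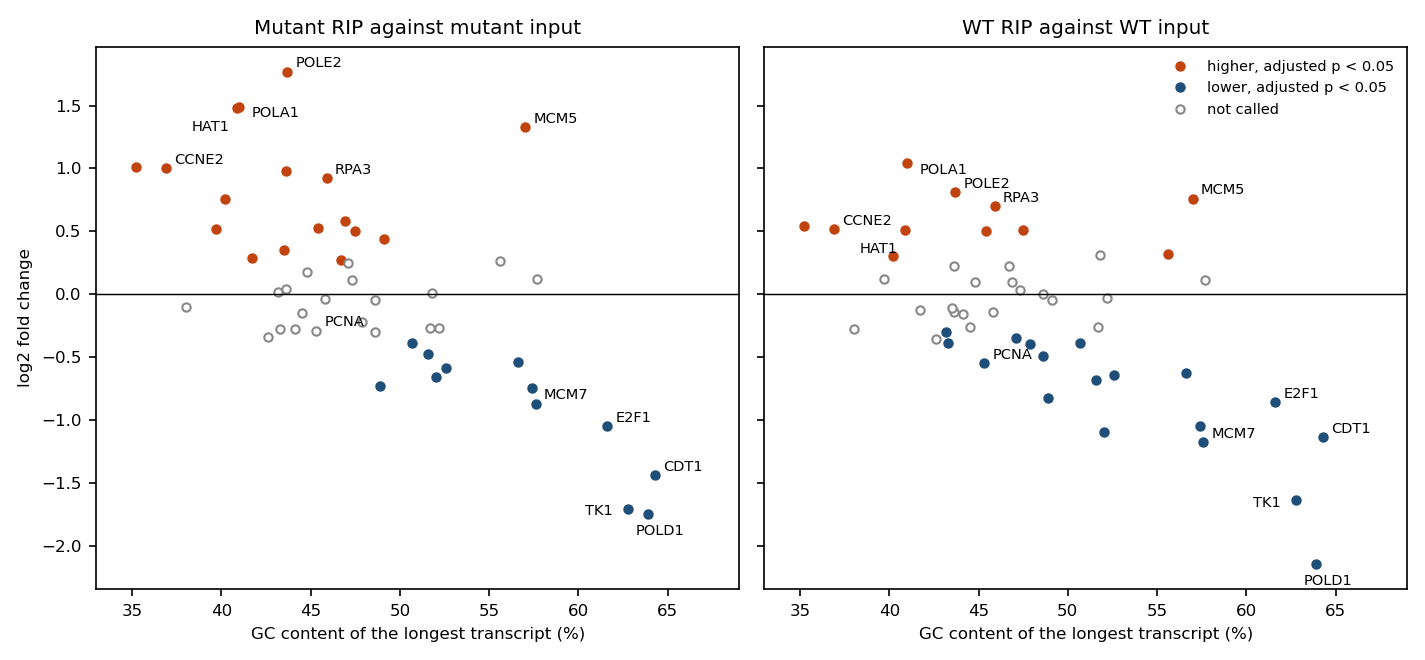
Enrichment of each of the 49 members (y axis, log2 fold change) in the mutant line (left) and the WT line (right) against the GC content of its longest transcript (x axis, %). The most GC-rich members, among them CDT1, POLD1, TK1 and E2F1, are lower in the precipitates, and MCM5 is higher at 57.0% GC.

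The 3′ UTRs were read for the letters HuR is known to favour. From 1 coding transcript per gene, the one with the longest coding sequence, the 49 members had a median 3′ UTR of 734 bases with 55.7% A and T, against 1071 bases and 57.8% for 13632 coding genes tested. The pentamer ATTTA occurred in 28 of 49 (57.1%), against 68.6% of those coding genes. TTTATTT occurred in 17 (34.7%, against 43.9%) and TTTTTTT in 21 (42.9%, against 46.9%). Members with ATTTA had a median enrichment of 0.07 in the mutant line and −0.12 in the WT line, and the 21 without it −0.27 and −0.26. For coding genes these medians were 0.01 and −0.04 with ATTTA and −0.46 and −0.39 without it. When the longest annotated 3′ UTR was taken for each gene, 32 members (65.3%) held ATTTA, against 73.4% of coding genes. Spearman's rho of enrichment with the A and T content of the 3′ UTR was 0.42 in the mutant line and 0.36 in the WT line over the members, beside 0.49 and 0.43 over coding genes. No match in these windows says only that the letters are not there.

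The windows below are 30 bases each from hg19, written 5′ to 3′ on the gene's strand. The first match of the motif in the 3′ UTR is in capitals. They were chosen because their genes carry the results above. E2F1 was lower in both precipitates. HAT1 was higher in both and its enrichment differed between lines, and PCNA and RRM2 differed between inputs. That of HAT1 is at chr2:172848445-172848474 (plus), that of E2F1 at chr20:32263961-32263990 (minus), that of PCNA at chr20:5095772-5095801 (minus) and that of RRM2 at chr2:10269932-10269961 (plus).
HAT1: gagcatatattgcATTTAaagaaagataaa
E2F1: ttaatggagcgtTATTTATttatcgaggcc
PCNA: gtaaataacctaTTTTTTTctctattctct
RRM2: ataatagcttgaTTTATTTggtttctacac
The motif shown occurs 1 time in the 334 bases of the HAT1 3′ UTR, 3 times in the 1255 bases of E2F1, 1 time in the 330 bases of PCNA and 3 times in the 2032 bases of RRM2. TATTTAT contains ATTTA. Among coding genes whose 3′ UTR is within 10% of the same length, 44.7%, 30.9%, 16.0% and 66.4% hold the motif shown for HAT1, E2F1, PCNA and RRM2. RRM2 also held 15 overlapping matches to TTTTTTT and 5 to ATTTA, and its recovery was near its input level in both lines. POLE2, the most enriched member in the mutant line, has a 3′ UTR of 97 bases in which none of the 3 motifs was found.

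Further genes of the pathway, outside the members, came from lists of replication and S phase genes. Of 35 other replication machinery genes, 9 were lower in mutant input with a median of −0.20, where 10% of all genes and 14.2% of coding genes were lower. By edgeR 0 of them were higher, with 1 before adjustment (p under 0.05) and 1 with DESeq2. DONSON, a replisome assembly factor, was at 13.3 ± 0.916 CPM in mutant input and 23.4 ± 2.74 CPM in WT input (SD, n = 3 each; −0.82, adjusted p = 6.18e-05), an uncertain gene that overlaps SON. DSCC1, of an alternative clamp loader (−0.61), and RNASEH2B (−0.56) and RNASEH2A (−0.57), subunits of RNase H2, were lower too, and RNASEH2A is uncertain because 53.3% of its exon bases are shared with another gene. Of 37 other S phase regulators and E2F targets, 9 were lower and 1, the repressor E2F4 (0.44), higher, with a median of −0.25. SAMHD1, a dNTP hydrolase, stood at −0.97 and the reductase subunit RRM2B at −0.85.

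In enrichment, 15 of the 35 machinery genes were higher and 10 lower in the mutant line, and 9 were higher and 13 lower in the WT line. Of coding genes 26.6% were higher and 36.1% lower in the mutant line, and 22.0% higher and 34.0% lower in the WT line. The nuclease and helicase DNA2 had the highest values (2.77 in the mutant line and 2.2 in the WT line), at 118 ± 2.65 CPM in mutant RIP against 17.2 ± 1.45 CPM in mutant input, and 74.5 ± 12.2 CPM in WT RIP against 16.2 ± 1.0 CPM in WT input. ORC4 (2.46 and 1.42), ORC2 (1.55 and 0.86) and WDHD1 (1.91 and 1.55), which couples polymerase alpha to the helicase, were higher as well. The helicase RECQL4 (−1.82 and −1.94) and the fork protection gene TIMELESS (−1.52 and −1.47) were lower. Of the 37 regulators 14 were higher and 9 lower in the mutant line, and 6 were higher and 13 lower in the WT line. The pocket protein RBL1 stood at 1.66 and 0.99, the chromatin factor ATAD2 at 1.39 and 0.97, and the transcription factor MYBL2 at −2.71 and −2.15. In the difference of enrichments edgeR called 0 of either list, with 12 and 9 higher and 0 and 1 lower at an unadjusted p under 0.05. Of all 22984 genes 7.6% were higher and 1258 lower at that p. DESeq2 called 5 and 2 higher, and 1.65% of all genes. ELAVL1 RNA itself was lower in the precipitates of both lines, at a log2 fold change of −0.83 ± 0.13 in the mutant line and −0.76 ± 0.12 in the WT line.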

How the data were processed

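Strand-aware total RNA libraries of 12 samples were sequenced by the authors. Each deposited file holds the raw counts of 1 library by Ensembl identifier, neither pooled nor normalized. Per the submitters' processing notes bcl2fastq 2.20.0.422, cutadapt, STAR 2.4.0j, featureCounts 1.6.4 and hg19 were used. The annotation release, strand setting and treatment of multi-mapping reads are not given in the sources used here. Identifiers were matched to GENCODE on GRCh37 (55538 of 57773). Those unmatched held 2.65% to 3.39% of a library's counts in the precipitates, 15.9% to 18.8% in WT input and 19.6% to 21.0% in mutant input. The part of this difference in the results was not tested.

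The computation used R 4.3.3, edgeR 4.0.16, limma 3.58.1, DESeq2 1.42.0, Python 3.11.15, numpy 2.4.6, pandas 2.3.3 and matplotlib 3.10.9. All 12 libraries entered 1 robust edgeR quasi-likelihood fit of 4 groups (filterByExpr, minimum count 10 and total 15, TMM factors), with Benjamini-Hochberg adjustment over 22984 genes and calls at 0.05. CPM are counts scaled by TMM library sizes, and the SE comes from the F statistic. The fit was tested on simulated data. Replicates differed by more than sampling noise, and unequally between groups. On counts scaled by library total, chi-square per degree of freedom was 68.4 to 229 within WT input and 15 to 32.9 within mutant input. It was 42.6 to 110 within WT RIP and 18.3 to 78.2 within mutant RIP. The fit shares its spread over the 4 groups.

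The members and lists were chosen with earlier results of these data known. Values in every library were given for the up to 4 members with the largest rise and fall among called members of each comparison and for PCNA, MCM2, CDC6, CCNE1, E2F1, TYMS and RRM2, and of further genes up to 4 a comparison by adjusted p. E2F4 was named because it was the single call. Alternatives were other scalings, DESeq2, filters, the groups compared alone, replicate blocks, GC trend removal and leaving out each library. Fold changes are relative to the typical gene. Some genes that this rule names are not reported here.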

Additional observations from a re-analysis of the deposited data

Results flagged for a closer look

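The difference of enrichments of HAT1, mutant minus WT, was 0.97 on the log2 scale and passed the test of the difference itself, as described in the results. It kept its direction with every library left out in turn (0.81 to 1.06) and under the other settings (0.83 to 1.22), and its adjusted p crossed the threshold in 8 of 12 of the fits without 1 library and with the strict filter (0.0546).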

How the results depend on the processing

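Counts of called members are given here under each alternative, with scaling by total library size first. It gave 40 lower and 0 higher in input, 45 higher and 0 lower in mutant enrichment, 38 higher and 2 lower in WT enrichment, and 2 higher in the difference of enrichments. Genes lower in the mutant precipitate turned to CDC45 0.66, E2F1 0.27, LIG1 0.77, MCM2 0.56, MCM3 0.83, MCM7 0.43, ORC1 0.93, RFC2 0.72, TYMS 0.58 and ELAVL1 0.49 with that scaling. Those lower in the WT precipitate turned to CHAF1B 0.57, E2F1 0.20, GINS4 0.65, LIG1 0.42, MCM10 0.67, MCM3 0.35, MCM6 0.74, ORC1 0.67, PCNA 0.50, RFC2 0.40, RPA1 0.69, TYMS 0.23 and ELAVL1 0.29. Such scaling sets no typical gene to 0, and moved the median of all genes to −0.43 (input), 1.38 (mutant enrichment), 1.12 (WT enrichment) and 0.25 (their difference). With the GC trend removed, mutant enrichment was E2F1 0.04, LIG1 0.17, MCM2 0.02 and RFC1 0.00 and WT enrichment E2F1 0.02, and with the replicate block added E2F1 0.03, LIG1 0.16 and MCM2 0.02 (mutant) and E2F1 0.02 (WT), the cause of which was not tested.

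The difference of enrichments called 5 members higher with the DESeq2 test, 3 without a filter, 0 with the strict filter, 3 with the block within line, 3 with the GC trend removed and 5 with the block and GC together, which also gave 25 lower in input. With each library left out in turn, the counts were 8 to 17 lower and 1 to 1 higher in input, 14 to 17 higher and 11 to 14 lower in mutant enrichment, 8 to 12 higher and 14 to 19 lower in WT enrichment, and 0 to 2 higher in the difference.

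Same-numbered libraries of different groups correlated by −0.521 to 0.612, in deviations from group means. Between WT RIP and mutant RIP the values were 0.357, 0.612 and 0.0441 for equal numbers and −0.455 to 0.158 for unequal ones. With 3 libraries a group this cannot decide whether the numbers pair the samples. The replicate block gave 1 higher and 17 lower in input, 15 higher and 12 lower in mutant enrichment, 12 higher and 19 lower in WT enrichment, and 1 higher in their difference. Depth was 105 counts or more for each member in each library.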
